A study of Mus musculus with 7 samples.

Results

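Astrocyte preparations from 2 CETP transgenic mice whose labels state a standard diet were compared with preparations from 2 wild-type mice on a standard diet, which is 4 of the 7 arrays of the series. The arrays were chosen by their labels alone. Each array held RNA from 1 mouse, and the numbers in the labels made these CETP replicates 4 and 5 and wild-type replicates 2 and 3. The CETP mice were of the strain B6.CBA-Tg(CETP)5203Tall/J, a transgenic line for human CETP, the cholesteryl ester transfer protein. The other 3 arrays came from CETP mice of the same strain fed 1% cholesterol (replicates 1 to 3), and they are given for orientation and shared the error estimate. The growth protocol describes a 1% cholesterol diet for 2 months (from 2 to 4 months of age) for the transgenic animals as such, so the standard diet of replicates 4 and 5 rests on their labels. The diet of these 2 mice could not be checked from the values, and the ages of the wild-type mice were not given separately.

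CETP is a plasma protein that moves cholesteryl esters and triglycerides between lipoproteins. Mice have no gene of their own for it, and dietary cholesterol raises the expression of the transgene. Astrocytes make most of the cholesterol used in the brain, load it onto apolipoprotein E and pass it to neurons, which take it up through lipoprotein receptors. The comparison of the standard-diet arrays bears on whether the CETP genotype, without added cholesterol, goes with another expression profile in these cells.

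The cells were taken from whole brain with magnetic beads against the astrocyte antigen ACSA-2, are called GLAST positive in the labels, and were more than 70% pure by GFAP flow cytometry. The rest could be cells of other types, and in bulk RNA a different share of cells of a type and a different RNA amount per cell cannot be told apart. The authors' deposited log2 values were used for 22206 probe sets with IDs starting with TC or TS. Medians of the 7 arrays lay between 7.51 and 7.59 (log2), and medians of the 5222 negative control probe sets between 7.48 and 7.69. From 48.1% to 51.4% of the probe sets were above the negative control median of their array. The 95th percentiles of the negative controls lay between 11.8 and 12.2 (log2). A value above the negative control median can therefore still lie within the range of the controls. Gene names were available for 1606 probe sets of 1595 genes, from a table of the authors whose smallest fold was 1.4 in either direction. Its folds matched the differences between the standard-diet and the cholesterol-diet CETP arrays, so the named genes were selected on values that include replicates 4 and 5, and their directions are no independent evidence. Gfap, Aqp4, App and the transgene itself had no named probe set and were not analysed here.

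No probe set passed an adjusted p of 0.05 for CETP standard diet against wild type (limma with Benjamini-Hochberg adjustment over 22206 probe sets, 0% called). Adjusted p-values began at 0.607. Before adjustment, p was under 0.05 on 1180 probe sets (5.31%), of which 539 had a higher mean (2.43%) and 641 a lower mean (2.89%) in CETP standard-diet astrocytes. Which count was larger turned with the scaling, to 645 higher and 504 lower after quantile normalization and 593 higher and 546 lower after subtraction of array medians, and without wild-type replicate 3 there were 1200 lower. The limma-adjusted p-values of the genes and probe sets described below lay between 0.607 and 0.999, so every value below is a description of 4 arrays. An exact permutation test of 2 arrays against 2 could not go below p = 0.3333. Where an error follows a difference it is the standard error from the limma fit over the 7 arrays.

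Overlap of single arrays was used as a second description. Both CETP standard-diet arrays lay above both wild-type arrays on 2700 probe sets (12.2%) and below both on 4276 (19.3%). With a mean difference of at least 1 (log2), a doubling, the counts turned to 145 above (0.653%) and 28 below (0.126%). Among the 1606 named probe sets, 352 (21.9%) lay above and 215 (13.4%) below, and 81 (5.04%) lay above and 4 (0.249%) below by at least 1 (log2). Among the 20600 probe sets without a name, 2348 (11.4%) lay above and 4061 (19.7%) below, and 0.311% and 0.117% did so by at least 1 (log2). Of the probe sets that did not overlap, 38.7% were above as deposited and 48.9% after quantile normalization. The mean difference was above 0 on 42.7% of all, 57.4% of named and 41.6% of unnamed probe sets, with a median of -0.052 over all and 0.089 over the named ones (log2).

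The arrays of a group were about as far from each other as from the other group. Replicates 4 and 5 differed by a median of 0.24 (log2) over all probe sets and the wild-type arrays by 0.32, and the 4 pairs of a CETP standard-diet and a wild-type array by medians of 0.26 to 0.29. Across probe sets, which are not independent, the Pearson correlation was 0.9859 between the CETP standard-diet arrays, 0.9828 between the wild-type arrays, and 0.9842 to 0.9853 between the groups. The differences between means ran from -1.40 for Rps6ka2 to 3.56 for Frzb (log2).

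Interferon-induced genes had higher values on both CETP standard-diet arrays than in wild type. Interferons bind receptors at the cell surface, and the signal ends in complexes of STAT family factors that enter the nucleus. The complex of type I interferons, which contains STAT2 and IRF9, binds the interferon-stimulated response element in the promoters of antiviral genes. Of 17 named probe sets on the interferon response list, 15 lay above both wild-type arrays and 0 below, against 21.9% and 13.4% of named probe sets. The list median over the wild-type mean was 1.15 in replicate 4 and 1.05 in replicate 5, and 0.60, 0.23 and 0.13 in cholesterol-diet replicates 1, 2 and 3 (log2). All 17 means were higher than in wild type, by 0.44 to 2.01 (log2).

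Promoters of this group are shown because the response element is a short sequence that can be looked for. RefSeq windows (GRCm38.p6, 250 bases before to 50 after each start) were found for 16 of the named genes of the interferon response and interferon-gamma GTPase lists. The element was searched on both strands as GAAA, any 2 bases (NN) and GAAA again, and matches could overlap. It occurred in 8 of the 16 genes (50%), and in 1079 of all 27025 genes with a window (3.99%). The genes without a match were all on the interferon response list, among them Herc6, Ifi44, Irf9, Sp100 and Trim25. Those with a match were Bst2, Ddx58, Slfn5 and Stat2 of that list, and Igtp, Gbp7, Gbp3 and Irgm1 of the GTPase list. The windows of 3 of these genes follow, cut to the 150 bases before the start, 5′ to 3′ in the direction of the gene, with the match in capitals (TTTC, NN and TTTC where it lies on the other strand).
Igtp, chr11:58199406-58199555, plus strand: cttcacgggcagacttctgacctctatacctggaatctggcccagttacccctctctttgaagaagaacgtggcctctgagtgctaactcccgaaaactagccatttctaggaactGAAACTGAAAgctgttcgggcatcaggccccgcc
Gbp7, chr3:142530186-142530335, plus strand: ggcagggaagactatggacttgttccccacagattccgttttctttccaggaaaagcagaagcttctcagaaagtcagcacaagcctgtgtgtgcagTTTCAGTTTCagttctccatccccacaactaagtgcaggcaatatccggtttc
Gbp3, chr3:142559894-142560043, plus strand: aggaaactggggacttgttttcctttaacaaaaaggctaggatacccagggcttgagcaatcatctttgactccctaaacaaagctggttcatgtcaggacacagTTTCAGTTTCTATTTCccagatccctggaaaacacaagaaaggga
The windows shown are all of the GTPase list. The match of Igtp began 34 bases before the start, and Gbp3 held a pair of overlapping matches. The names Gbp3 and Irgm1 rest on synonyms and the paralogs are uncertain, so their windows may not be those of the genes measured. A match describes these letters and shows no binding, and the windows of Irf7, Samd9l and Tnfsf10, whose values are given below, held no match.

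Ly6e, which encodes a membrane-anchored protein induced by interferon, had log2 values of 14.58 and 14.27 in CETP standard-diet replicates 4 and 5, of 13.64, 13.61 and 13.50 in the cholesterol-diet arrays, and of 12.98 and 12.67 in wild type. The 3 groups did not overlap. The difference from wild type was 1.60 ± 0.23 (log2), or 3.02-fold, with an unadjusted p of 4.85e-05 and an adjusted p of 0.607 by limma. Samd9l, an antiviral restriction factor, had 10.83 and 11.08 in CETP standard-diet arrays, 9.92, 10.22 and 10.28 in cholesterol-diet arrays, and 9.66 and 9.38 in wild type. Its order of groups was that of Ly6e, with a difference of 1.44 ± 0.24 (log2).

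Slfn5, of the Schlafen family of interferon-regulated proteins, had 9.54 and 10.01 in CETP standard-diet arrays, 9.01, 9.57 and 9.07 in cholesterol-diet arrays, and 8.33 and 8.49 in wild type (log2). The difference from wild type was 1.37 ± 0.27. Ddx58, which encodes the RNA sensor RIG-I, had 9.67 and 9.39 in CETP standard-diet arrays, 9.62, 8.98 and 8.75 in cholesterol-diet arrays, and 8.17 and 8.32 in wild type. For both genes all 5 CETP arrays lay above wild type, and the CETP groups overlapped.

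Genes of the signalling pathway itself had smaller mean differences than the 4 genes above. Usp18, which encodes a feedback inhibitor of the interferon receptor, had 8.40 and 8.62 in CETP standard-diet arrays against 7.75 and 7.39 in wild type. Irf9, with 8.54 and 9.28 against 8.31 and 8.31, was also above wild type on both arrays. Stat2 was not, since replicate 4 (9.96) lay within the wild-type range of 9.43 to 10.14, and replicate 5 had 10.88.

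Some members were dim or uneven. Irf7, a transcription factor that amplifies the type I response, had 6.49 and 6.47 in CETP standard-diet arrays, 5.35, 5.27 and 5.37 in cholesterol-diet arrays, and 5.39 and 4.71 in wild type. All 7 values were under the negative control medians of their arrays, so its level was not above background on any of them. Tnfsf10, which encodes the death ligand TRAIL, had 7.50 and 8.74 in CETP standard-diet arrays against 6.31 and 5.92 in wild type, and was above the negative control median in replicate 5 only. Bst2, the tethering factor tetherin, had 10.20 in replicate 4, 8.32 in replicate 5, and 8.33 and 7.71 in wild type, so that replicate 4 alone lay above wild type.

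**Figure D1:**
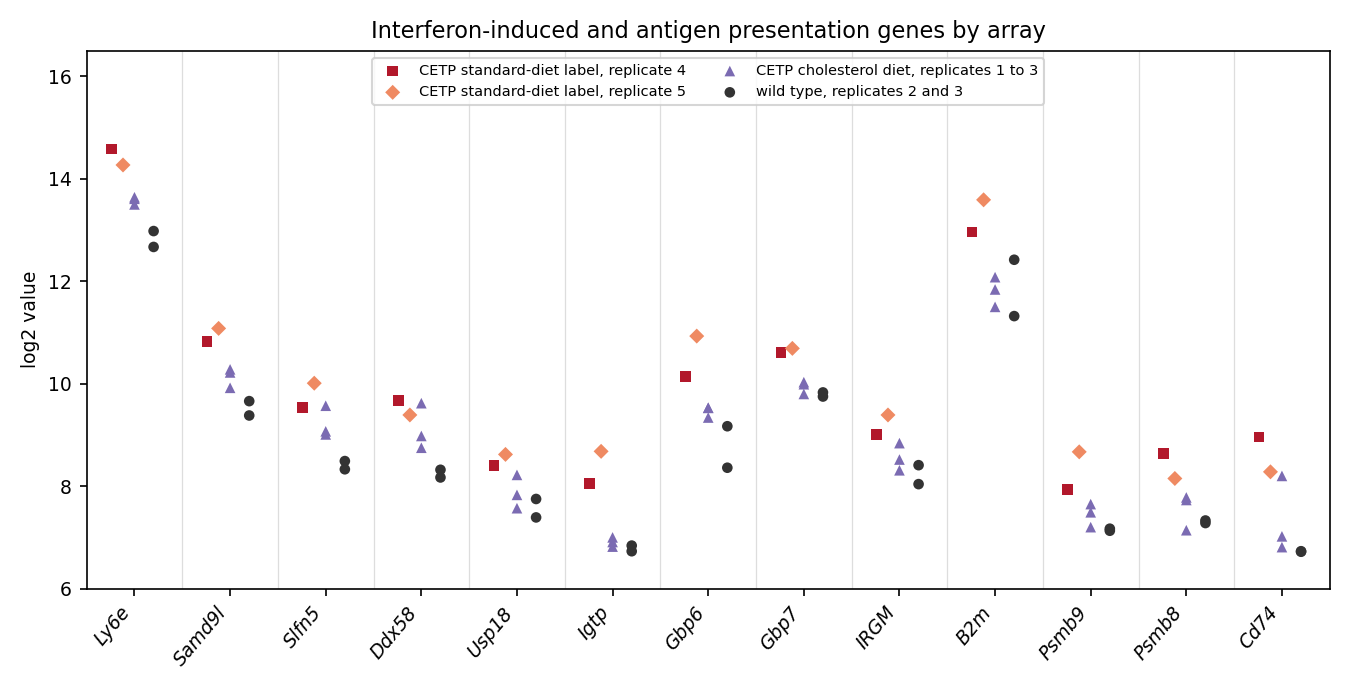
Log2 values (vertical axis) of 13 interferon-induced and antigen presentation genes on each array, with replicates 4 and 5 of the CETP standard-diet label leftmost and wild type rightmost for each gene; points are single arrays. Both CETP standard-diet arrays lie above both wild-type arrays for each of these genes, as for Ly6e with 14.58 and 14.27 against 12.98 and 12.67; IRGM is the name in the authors' table.

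The GTPases induced by interferon-gamma, which attack the membranes of vacuoles that hold pathogens, lay above both wild-type arrays on 8 of 8 named probe sets (21.9% of named, 12.2% of all). Their median over the wild-type mean was 0.87 in replicate 4 and 1.42 in replicate 5, and 0.33, 0.23 and 0.41 in the cholesterol-diet arrays (log2). In contrast to the microglial genes below, 7 of the 8 probe sets were higher in replicate 5 than in replicate 4. The share of all probe sets with that order was not computed. Only 3 of the 8 were above the negative control median on all 7 arrays.

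Igtp, an immunity-related GTPase, had 8.05 and 8.68 in CETP standard-diet arrays, 6.91, 7.0 and 6.82 in cholesterol-diet arrays, and 6.84 and 6.73 in wild type (log2). The cholesterol-diet and wild-type values were under the negative control medians. Both standard-diet values were above, which a rule for naming higher genes required. Its difference from wild type was 1.58 ± 0.25 (log2), and its difference from the cholesterol-diet arrays was 1.46 ± 0.23 (limma adjusted p = 1.0). Gbp6, a guanylate-binding protein, had 10.14 and 10.93 in CETP standard-diet arrays, 9.53, 9.53 and 9.34 in cholesterol-diet arrays, and 8.36 and 9.17 in wild type on its brighter probe set, and its dimmer probe set gave 6.96 and 7.72 against 5.92 and 6.21. Both probe sets had the same order of groups.

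Gbp7 had 10.61 and 10.69 in CETP standard-diet arrays, 10.03, 9.99 and 9.80 in cholesterol-diet arrays, and 9.83 and 9.75 in wild type, a small and even difference of 0.86 ± 0.21 (log2). The probe set listed as GBP4, which its synonym places at mouse Gbp3, had 8.43 and 9.85 in CETP standard-diet arrays against 7.40 and 7.72 in wild type. The probe set listed as IRGM, placed at Irgm1 by its synonym, had 9.01 and 9.39 against 8.41 and 8.04. Guanylate-binding and immunity-related GTPases have near copies in the mouse genome, so the paralog behind these 2 names is uncertain.

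Antigen presentation genes, many of them induced by interferon-gamma, lay above both wild-type arrays on 4 of 5 named probe sets and below on 0 (21.9% and 13.4% of named, 12.2% and 19.3% of all). B2m, the light chain of MHC class I, had 12.96 and 13.59 in CETP standard-diet arrays, 11.50, 12.08 and 11.84 in cholesterol-diet arrays, and 11.32 and 12.42 in wild type. The difference of 1.41 ± 0.38 (log2) from wild type came with a gap of more than 1 between the wild-type arrays. Psmb9 and Psmb8 encode catalytic subunits of the immunoproteasome. Psmb9 had 7.94 and 8.67 in CETP standard-diet arrays against 7.17 and 7.13 in wild type, and Psmb8 had 8.64 and 8.15 against 7.33 and 7.28. Cd74, the invariant chain of MHC class II, had 8.96 and 8.28 in CETP standard-diet arrays, 7.02, 6.81 and 8.20 in cholesterol-diet arrays, and 6.72 and 6.73 in wild type. Neither wild-type array had Cd74 above its negative control median.

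Markers of cells other than astrocytes moved with these genes to different degrees in the replicates. The microglia list had medians over the wild-type mean of 3.45 in replicate 4 and 0.51 in replicate 5, where the interferon response list had 1.15 and 1.05. In cholesterol-diet replicates 1, 2 and 3 the microglia list had 1.03, 0.28 and 1.02, and the interferon response list 0.60, 0.23 and 0.13. The endothelium list had 1.31 and 0.59 in replicates 4 and 5, and 0.11, 0.34 and 0.083 in the cholesterol-diet arrays. In replicate 5 the interferon medians thus exceeded those of both marker lists, and which cells carried the interferon-induced RNA was not tested.

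**Figure D2:**
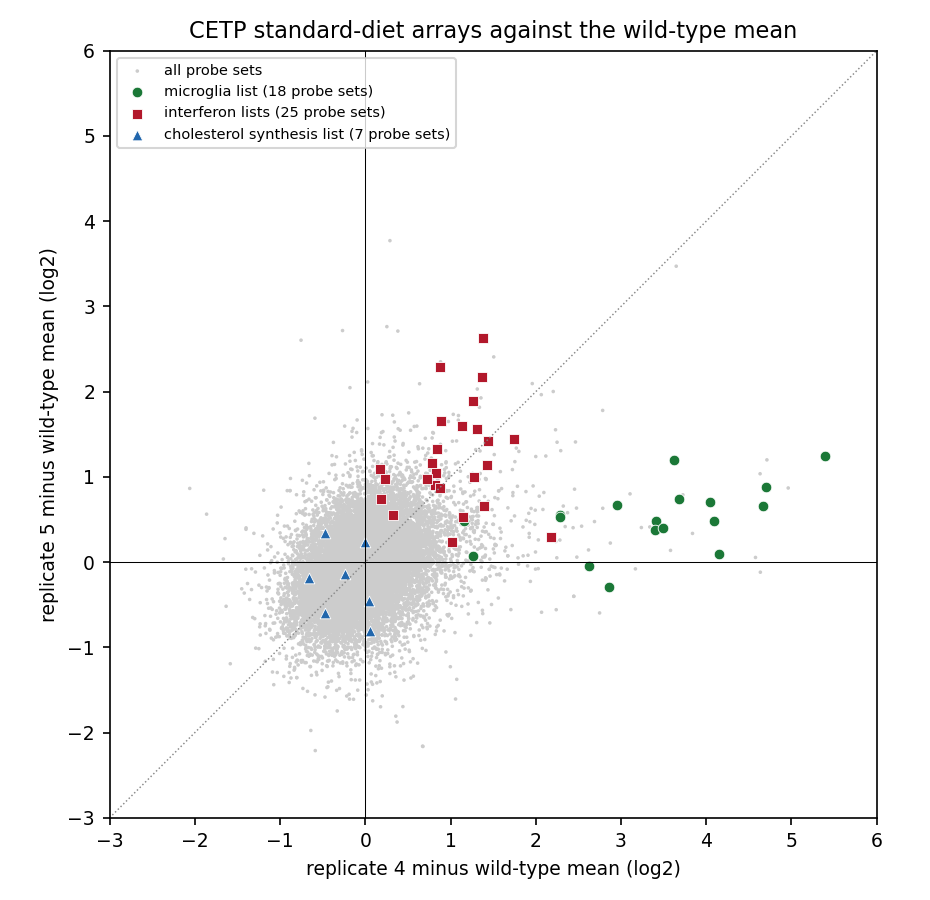
Log2 difference from the wild-type mean in CETP standard-diet replicate 4 (horizontal axis) and replicate 5 (vertical axis), 1 point per probe set; the dotted line marks equal differences. The interferon lists (red squares) spread around the dotted line, the microglia list (green circles) lies to the right with medians of 3.45 in replicate 4 and 0.51 in replicate 5, and the cholesterol synthesis list (blue triangles) lies near 0.

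Microglial genes separated the CETP standard-diet arrays from each other. Microglia are the resident macrophages of the brain, and their complement C1q, the receptor TREM2 and its signalling partner TYROBP are known for roles in the removal of synapses and lipid-rich debris. All 18 named microglia markers were higher in replicate 4 than in replicate 5. Replicate 4 lay above both wild-type arrays on 18 of 18, replicate 5 on 13 of 18, and both together on 13. Both together lay above on 21.9% of named and 12.2% of all probe sets. Shares over all probe sets were not computed for replicate 4 above replicate 5, or a single replicate above wild type, without a minimum margin. Over all probe sets, the median over the wild-type mean was -0.055 in replicate 4 and -0.053 in replicate 5 (log2). The mean log2 level of the 18 was 11.1 in replicate 4 and 8.30 in replicate 5, 8.75, 8.01 and 8.75 in the cholesterol-diet arrays, and 7.96 and 7.62 in wild type. Only 6 of the 18 were above the negative control median on all 7 arrays.

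C1qa, a chain of complement C1q, had 13.62 in replicate 4 and 9.46 in replicate 5, 10.44, 9.10 and 9.70 in cholesterol-diet arrays, and 8.85 and 7.59 in wild type (log2). C1qb had 10.60 and 7.26 in replicates 4 and 5 against 6.70 and 6.40 in wild type, and C1qc had 9.93 and 6.84 against 6.90 and 5.99. Replicate 4 stood at least 3 above replicate 5 on each of the 3 chains, and replicate 5 lay nearer to the wild-type arrays. The C1qa difference between means, 3.32 ± 1.07 (log2), therefore described replicate 4 more than the group.

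Tyrobp had 10.88 in replicate 4, 6.87 in replicate 5, 7.44, 6.99 and 7.40 in cholesterol-diet arrays, and 6.45 and 5.98 in wild type. Trem2 had 10.14 and 6.09 in replicates 4 and 5, 7.14, 6.24 and 6.92 in cholesterol-diet arrays, and 6.0 and 5.99 in wild type. For both genes replicate 4 was the only one of the 7 arrays above its negative control median. Selplg, the ligand of P-selectin, had 13.50 and 11.08 against 10.08 and 9.69. On this probe set replicate 5 also lay above wild type, by less than replicate 4. The chemokine receptor gene Cx3cr1 had 9.85 and 8.13 against 7.80 and 7.34.

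Some phagocyte genes were high in replicate 4 alone. On 17 probe sets (0.0766% of all) replicate 4 was at least 2 (log2) above the higher wild-type array and replicate 5 was not above it, and 12 of these were named (0.747% of named probe sets). Gpr34, a lysophosphatidylserine receptor, had 12.60 in replicate 4 and 9.93 in replicate 5 against 9.96 and 10.00 in wild type. Aif1, which encodes the microglial marker IBA1, had 10.20 and 7.05 against 7.04 and 7.64. Clec7a, the glucan receptor dectin-1, had 8.79 and 5.54 against 5.54 and 5.70, and Cd68, a lysosomal glycoprotein of macrophages, had 10.55 and 7.20 against 7.62 and 7.98. Replicate 5 was thus within or under the wild-type range for these 4 genes. The brightest of the probe sets listed as BCL2A1, an anti-apoptotic factor with several near copies in the mouse, had 12.68 and 7.93 against 8.27 and 7.82.

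Without replicate 5, the fit set the lone replicate 4 against wild type, with its spread assumed to be that of the other groups, and 13 probe sets of 11 genes then passed the limma-adjusted threshold. Tyrobp (adjusted p = 0.00553), Trem2 (adjusted p = 0.0129), C1qa (adjusted p = 0.0454), Laptm5, Mpeg1, Cst7, Csf3r, Clec7a, Cd68, the BCL2A1 probe sets and Slc15a3 were these 11, and 9 of the 13 probe sets were on the microglia lists. Without replicate 4, 0 probe sets passed. Replicate 5 also lay above both wild-type arrays on several of these genes, by less (C1qa by 1.24, Mpeg1 by 0.88 and Tyrobp by 0.66 over the wild-type mean, log2). Whether the preparation of replicate 4 held more microglia was not tested.

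Genes of early cell responses were also higher in replicate 4. Atf3, a stress-induced transcription factor, had 12.65 in replicate 4 and 10.22 in replicate 5, 10.45, 9.86 and 10.45 in cholesterol-diet arrays, and 9.88 and 10.45 in wild type. Btg2, an antiproliferative immediate early gene, had 8.66 and 7.25 against 7.68 and 7.38. Junb, a subunit of the AP-1 factor, was above wild type on both arrays, with 10.10 and 9.22 against 8.15 and 7.80. The cytokine genes Il1b (8.95 and 7.61 against 7.64 and 7.54) and Tgfb1 (9.20 and 7.78 against 7.80 and 7.88) were high in replicate 4 only. Of 5 named cytokine and chemokine genes, replicate 4 was above replicate 5 on 5, and the share of all probe sets with that order was not computed.

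Chaperones of the heat shock response were uneven between the replicates, with replicate 4 above replicate 5 on 5 of 5 named genes. The share of all probe sets with that order was not computed. Both replicates lay above wild type on 0 of the 5 and below on 0 (21.9% and 13.4% of named, 12.2% and 19.3% of all probe sets). Hsph1, a co-chaperone of HSP70, had 14.42 in replicate 4 and 11.76 in replicate 5, 12.48, 12.48 and 13.16 in cholesterol-diet arrays, and 13.35 and 13.37 in wild type. Hspb1, a small heat shock protein, had 12.01 and 9.22 against 9.47 and 10.08. The list of 5 had medians of 0.40 in replicate 4 and -0.56 in replicate 5 over the wild-type mean (log2), so its median difference of 0.068 described neither array. Hspa5, the endoplasmic reticulum chaperone BiP, was even, with 13.34 and 13.39 in CETP standard-diet arrays, 12.47, 12.60 and 12.46 in cholesterol-diet arrays, and 13.80 and 12.93 in wild type. Of the 5 unfolded protein response genes named, 1 lay above both wild-type arrays and 0 below, near the 21.9% and 13.4% of named probe sets.

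Few genes were high in replicate 5 alone. Only Gid4 and Lmo4, or 0.00901% of all probe sets, were at least 2 (log2) above wild type in replicate 5 with replicate 4 not above it. Gid4, a substrate receptor of a ubiquitin ligase, had 8.94 in replicate 4 and 12.30 in replicate 5 against 9.22 and 10.17 in wild type, and Lmo4, a transcriptional cofactor, had 7.43 and 10.42 against 7.44 and 7.96. Lcn2, which encodes the iron-related carrier lipocalin-2 and marks reactive astrocytes, had 5.61 in replicate 4, 9.09 in replicate 5, 9.35, 6.70 and 8.24 in cholesterol-diet arrays, and 5.47 and 5.17 in wild type. Replicate 4 lay next to wild type on Lcn2, and replicate 5 within the cholesterol-diet range. Over all probe sets, replicate 4 was at least 1 (log2) above replicate 5 on 550 (2.48%), and replicate 5 above replicate 4 on 271 (1.22%).

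**Figure D3:**
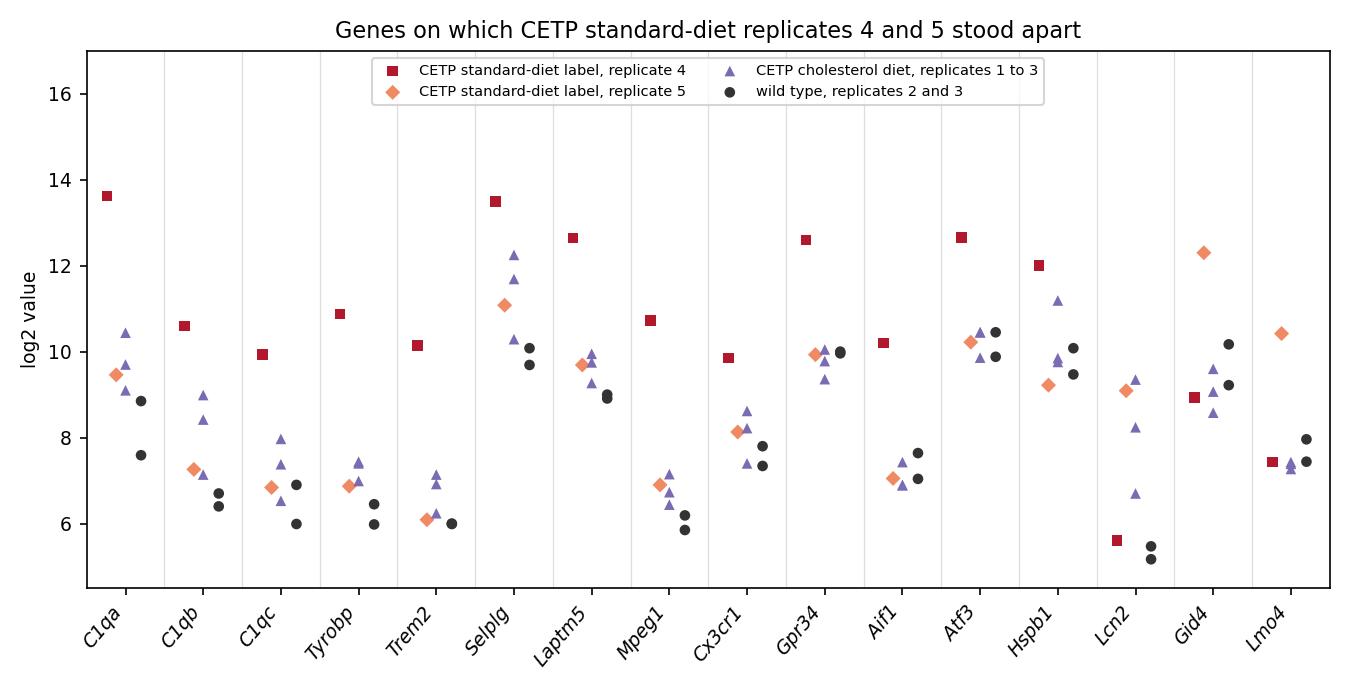
Log2 values (vertical axis) of 16 genes on each array, with replicate 4 of the CETP standard-diet label as squares and replicate 5 as diamonds; points are single arrays. Replicate 4 is the highest array from C1qa to Hspb1, while replicate 5 is the highest on Gid4 (12.30) and Lmo4 (10.42) and lies near cholesterol-diet replicate 1 on Lcn2 (9.09 and 9.35).

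Vessel genes were higher on both CETP standard-diet arrays, more so in replicate 4. Of 9 named endothelial markers, 7 lay above both wild-type arrays and 0 below (21.9% and 13.4% of named, 12.2% and 19.3% of all probe sets), with a list median of 0.95 (log2). Ptprb, the endothelial phosphatase that restrains the receptor TIE2, had 10.30 and 9.87 in CETP standard-diet arrays, 9.28, 9.31 and 9.92 in cholesterol-diet arrays, and 8.43 and 8.64 in wild type. All 5 CETP arrays lay above wild type, and the difference was 1.56 ± 0.28 (log2). Tek, which encodes TIE2, had 9.70 and 8.46 against 7.88 and 8.34.

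Flt1, a receptor for vascular endothelial growth factor, had 12.25 and 11.51 in CETP standard-diet arrays, 11.13, 11.29 and 11.62 in cholesterol-diet arrays, and 10.46 and 10.84 in wild type. Igfbp7, a secreted protein of vessel walls, had 12.94 and 12.73 in CETP standard-diet arrays, 11.91, 12.07 and 11.64 in cholesterol-diet arrays, and 11.81 and 11.65 in wild type. On Igfbp7 both standard-diet arrays lay above the other 5 arrays, whereas on Flt1 the CETP groups overlapped and all 5 CETP arrays lay above wild type. Egfl7, an endothelial matrix protein, had 11.66 and 10.93 against 10.35 and 10.34. Abcb1b, a P-glycoprotein efflux transporter that is not on the endothelium list, had 10.08 and 9.86 against 8.72 and 8.91.

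Mural cell genes were mixed. Mylk, the myosin light chain kinase of contractile cells, had 10.28 and 9.44 in CETP standard-diet arrays, 9.15, 9.23 and 10.00 in cholesterol-diet arrays, and 7.78 and 8.27 in wild type, a difference of 1.83 ± 0.37 (log2). Rgs5, a pericyte marker, had 8.77 and 8.54 against 7.77 and 8.28. Pdgfrb, the receptor that marks pericytes, did not follow, with 12.51 and 12.20 against 12.87 and 12.37. The haemoglobin genes Hbb-b1 and Hbb-b2, near copies of each other, had 14.13 and 13.92, and 14.02 and 13.78, in CETP standard-diet arrays, against 13.53 and 12.81, and 13.19 and 12.85, in wild type. The red blood cell list was 0.87 above wild type in median, and 1.70, 0.22 and 2.88 in the cholesterol-diet arrays, whose spread exceeded that difference. The part of vessel fragments and blood in these values was not tested.

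Genes outside these lists were among those with the smallest p or the largest difference. Frzb, a secreted inhibitor of Wnt signalling, had the largest difference of all probe sets, with 10.67 and 10.49 in CETP standard-diet arrays, 8.14, 11.93 and 10.03 in cholesterol-diet arrays, and 7.43 and 6.61 in wild type. It was above the negative control median on all 5 CETP arrays and on neither wild-type array. The rule that named Frzb required this of both standard-diet arrays. The measured difference was 3.56 ± 0.92 (log2), with an error widened by the spread of the cholesterol-diet arrays. St6galnac2, a sialyltransferase, had 9.67 and 9.75 against 8.52 and 8.64, and Cntrl, a centriole protein, had 10.27 and 10.62 against 9.19 and 9.20. Fxyd5, a regulator of the sodium pump, had 9.17 and 9.12 against 8.16 and 7.94. In these 3 genes the 2 replicates of each group were within 0.4 (log2) of each other.

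Lower means of at least 1 (log2) were fewer than higher ones, with 28 non-overlapping probe sets below wild type and 145 above. Rps6ka2, a ribosomal S6 kinase of the ERK pathway, had 11.24 in replicate 4 and 9.61 in replicate 5, 10.97, 10.94 and 11.12 in cholesterol-diet arrays, and 11.96 and 11.69 in wild type, the lowest difference of all at -1.40 ± 0.43 (log2). Blcap, a small conserved membrane protein, had 12.52 and 11.18 against 13.32 and 12.99. On both genes most of the difference came from replicate 5. Sv2a, a synaptic vesicle protein, had 9.98 and 9.55 against 10.96 and 10.49, and Slc35f6, a member of a solute carrier family, had 9.19 and 9.25 against 9.79 and 9.96. Zc3h15, a zinc finger protein, had 11.95 and 12.07 in CETP standard-diet arrays, 11.35, 11.79 and 11.09 in cholesterol-diet arrays, and 12.81 and 12.74 in wild type. On Zc3h15 the standard-diet arrays lay between the cholesterol-diet and the wild-type arrays.

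The fatty acid and glycerolipid metabolism list had the lowest median, which was the value of Sec14l2, described below. Of 5 named genes of fatty acid and glycerolipid metabolism, 3 lay below both wild-type arrays and 0 above (13.4% and 21.9% of named, 19.3% and 12.2% of all probe sets), with a median of -0.93 (log2), -0.72 in replicate 4 and -0.84 in replicate 5. The cholesterol-diet arrays had -0.37, -0.52 and -0.32. Of the 5 standard-diet means, 1 was above wild type, by 0.032 (log2). Dagla encodes a diacylglycerol lipase that makes the endocannabinoid 2-arachidonoylglycerol (2-AG). It had 11.48 and 11.67 in CETP standard-diet arrays, 12.47, 11.99 and 12.37 in cholesterol-diet arrays, and 12.50 and 12.52 in wild type, a difference of -0.93 ± 0.24 (log2). Its paralog Daglb had 12.32 and 10.91 against 13.12 and 12.18, and replicate 4 overlapped wild type.

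Sec14l2, a lipid-binding protein that in rat was described to stimulate squalene epoxidation in cholesterol synthesis, had 10.44 and 10.28 in CETP standard-diet arrays, 10.92, 10.88 and 10.97 in cholesterol-diet arrays, and 11.44 and 11.14 in wild type. The 3 groups did not overlap, and the difference from wild type was -0.93 ± 0.22 (log2). Gk, the glycerol kinase, had 9.82 and 10.31 in CETP standard-diet arrays, 9.29, 9.56 and 8.87 in cholesterol-diet arrays, and 10.52 and 10.57 in wild type.

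**Figure D4:**
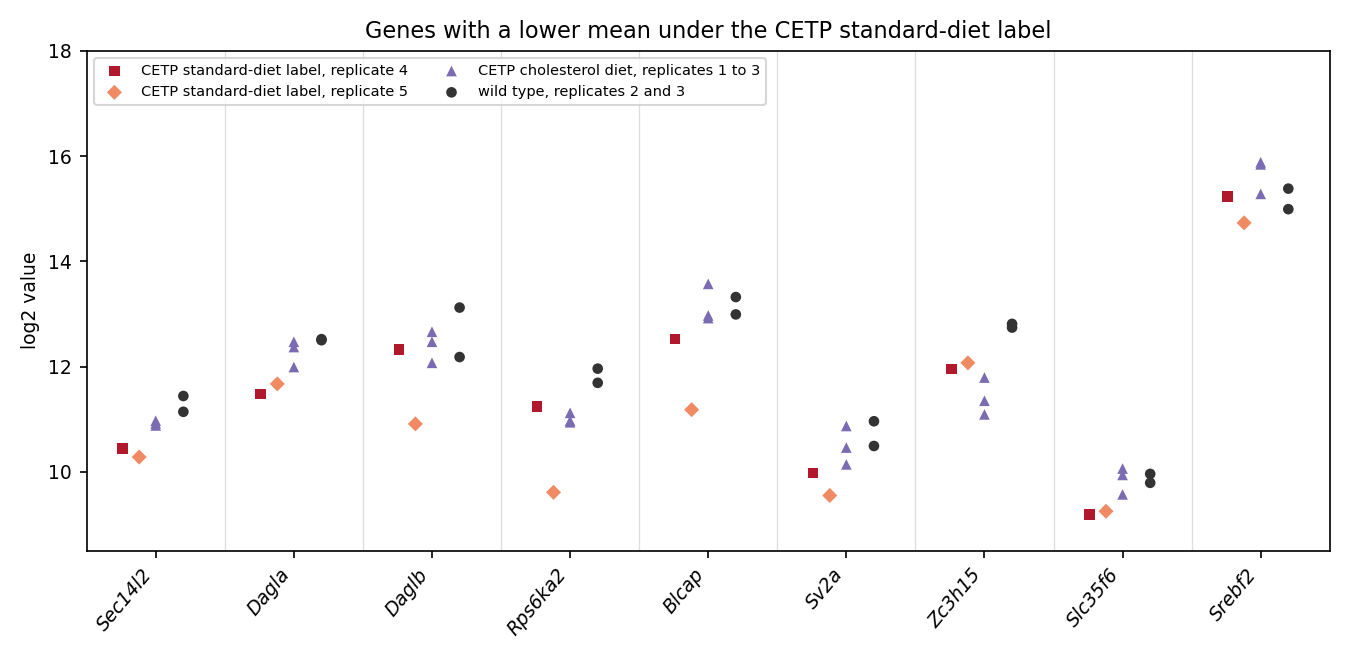
Log2 values (vertical axis) of 9 genes with a lower mean in CETP standard-diet astrocytes, with replicates 4 and 5 leftmost and wild type rightmost for each gene; points are single arrays. Both CETP standard-diet arrays lie below both wild-type arrays on Sec14l2, Dagla, Rps6ka2, Blcap, Sv2a, Zc3h15 and Slc35f6, and the groups overlap on Daglb and Srebf2.

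Cholesterol synthesis genes differed little from wild type. This pathway is driven by SREBP2, which is released to the nucleus when membrane sterol is low. Of 7 named genes, 0 lay above both wild-type arrays and 2 below (21.9% and 13.4% of named, 12.2% and 19.3% of all probe sets), with a list median of -0.21 (log2), while the cholesterol-diet arrays had 0.39, 0.096 and 0.61. Srebf2, the gene of SREBP2 itself, had 15.23 and 14.73 against 15.38 and 14.99, and Srebf1, which favours fatty acid synthesis, had 12.19 and 11.33 against 12.14 and 12.12. Both overlapped wild type.

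Of 5 named lipoprotein receptor genes, 0 lay above both wild-type arrays and 1 below, and of 2 named cholesterol export genes, 1 lay above and 0 below (21.9% and 13.4% of named probe sets). Lrp1 had 15.05 and 14.42 against 15.03 and 15.02. Sorl1, a sorting receptor for the amyloid precursor protein, was the receptor below, with 12.10 and 12.04 in CETP standard-diet arrays, 12.58, 12.28 and 12.89 in cholesterol-diet arrays, and 12.28 and 12.11 in wild type, which is a mean difference of -0.12 ± 0.25 (log2). Apoe, the main lipoprotein component made by astrocytes, had 16.95 and 17.46 against 16.72 and 16.97. Mylip, a ubiquitin ligase that is induced by oxysterols and marks lipoprotein receptors for degradation, had 12.84 and 11.53 in CETP standard-diet arrays, 11.36, 11.31 and 11.69 in cholesterol-diet arrays, and 11.49 and 11.02 in wild type, a difference of 0.93 ± 0.39 (log2). Both standard-diet arrays lay above wild type on Mylip, and replicate 4 was the only array above 12.

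The 3 named astrocyte markers, of 36 symbols on the list, overlapped between the groups. Slc1a3, the glutamate transporter GLAST, had 12.62 and 12.20 in CETP standard-diet arrays, 13.61, 12.67 and 13.68 in cholesterol-diet arrays, and 12.59 and 11.59 in wild type. Sox9, a transcription factor of astrocytes, had 14.68 and 14.70 against 14.71 and 14.44, and Fabp7, a fatty acid carrier of immature and some mature astrocytes, had 16.12 and 15.27 against 15.28 and 14.99. All 3 exceeded the negative control median of every array, and 0 of the 3 lay outside the wild-type range on both standard-diet arrays. Of named probe sets, 21.9% lay above and 13.4% below on both, so a count over 3 markers says little about the list. Reactive astrocyte genes lay above both wild-type arrays on 4 of 7 named probe sets and below on 0 (21.9% and 13.4% of named, 12.2% and 19.3% of all), with a median of 0.70 (log2), and they include Psmb8, Lcn2 and Hspb1 described above.

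The FoxO and hypoxia list had 4 of 8 named probe sets above both wild-type arrays and 0 below (21.9% and 13.4% of named, 12.2% and 19.3% of all), with a median of 0.60 (log2). Foxo3, a transcription factor held out of the nucleus by insulin signalling, had 7.41 and 6.80 in CETP standard-diet arrays, 7.85, 7.55 and 7.62 in cholesterol-diet arrays, and 6.27 and 6.47 in wild type, with both standard-diet values under the negative control median. Hif3a, a hypoxia-inducible factor subunit, had 8.23 and 8.70 in CETP standard-diet arrays, 9.65, 8.88 and 9.76 in cholesterol-diet arrays, and 7.87 and 8.14 in wild type. On these 2 genes the cholesterol-diet arrays were farther from wild type than the standard-diet arrays.

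**Figure D5:**
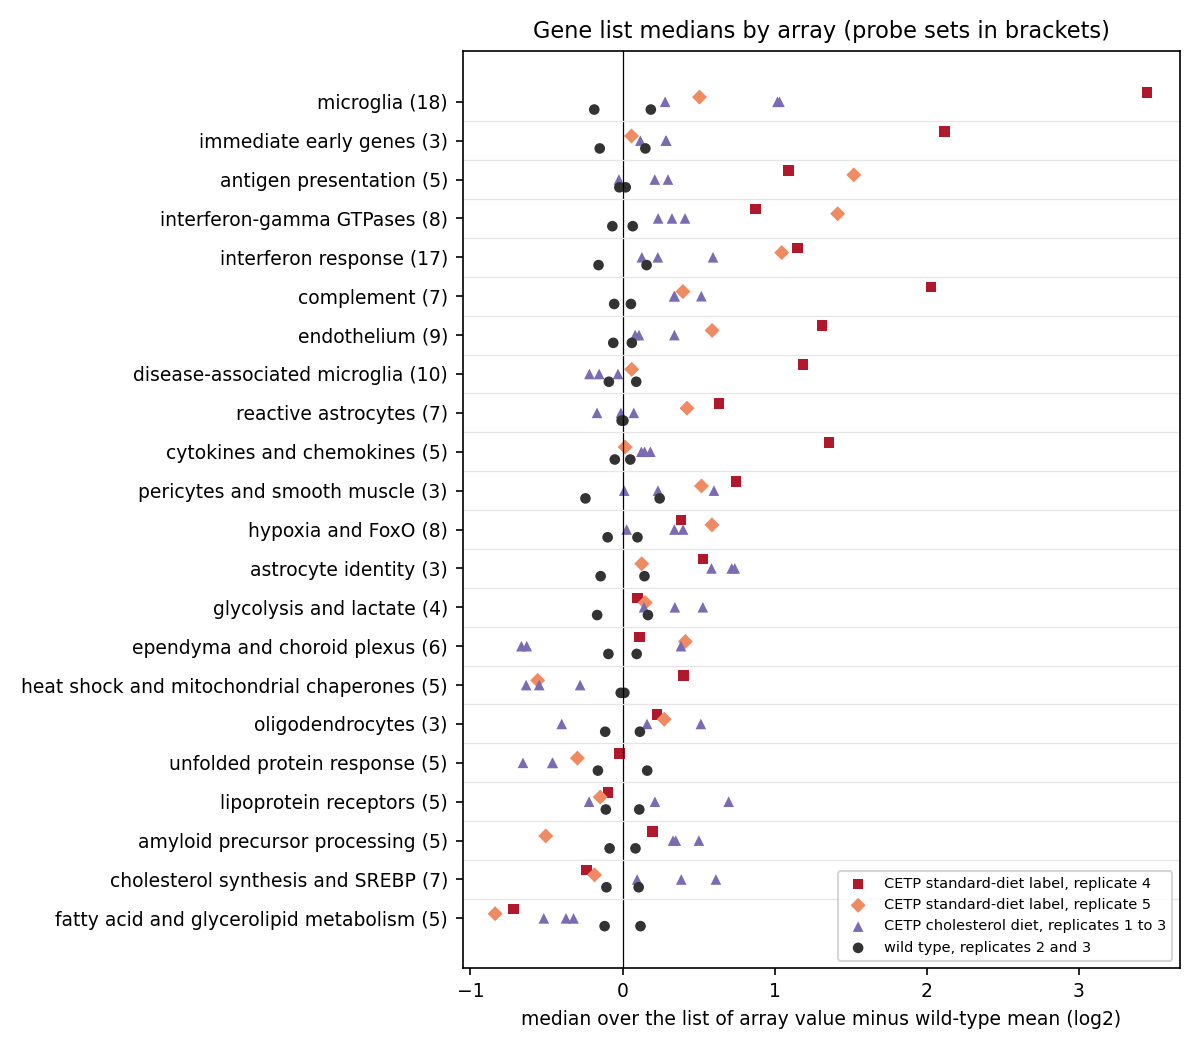
Median over each gene list of the array's value minus the wild-type mean (horizontal axis, log2), with the number of named probe sets in brackets and lists with at least 3 shown; points are single arrays. Replicates 4 and 5 are at 1.15 and 1.05 on interferon response and at 0.87 and 1.42 on interferon-gamma GTPases, replicate 4 stands alone at 3.45 on microglia and 2.12 on immediate early genes, and the lowest list is fatty acid and glycerolipid metabolism at -0.72 and -0.84.

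Probe sets without a single gene name held differences of the same size. The authors list TC0700004002.mm.2 as Gvin1 and other genes. It had 9.08 and 9.80 in CETP standard-diet arrays, 7.84, 7.92 and 7.59 in cholesterol-diet arrays, and 7.56 and 7.97 in wild type (log2). TC0600003126.mm.2 had 12.71 and 12.46 in CETP standard-diet arrays, 12.87, 12.36 and 12.58 in cholesterol-diet arrays, and 11.13 and 11.26 in wild type. The first stood apart on the standard-diet arrays, and on the second all 5 CETP arrays lay above wild type. TC0900000375.mm.2 (4.28 and 3.92 against 5.51 and 5.20) and TC0200004315.mm.2 (6.27 and 6.28 against 7.42 and 7.47) were lower and under the negative control median on all 7 arrays. By the chromosome in the probe set ID, the share of probe sets above both wild-type arrays ran from 9.32% on chromosome 14 to 14.9% on chromosome 17 among the autosomes. The share below ran from 17% on chromosome 19 to 23.4% on chromosome 14. Of 219 probe sets on the Y chromosome, 8.22% lay above and 32.4% below, and on the X chromosome 10.5% and 20.3%. Of 9 mitochondrial probe sets, 44.4% lay above and 0 below. The cause was not tested.

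The cholesterol-diet CETP arrays share the wild-type arrays as their baseline, and their values stand beside the standard-diet ones above for that reason only. The direct difference between the CETP groups gave 0 probe sets at an adjusted p of 0.05 (limma, 0% called; 679, or 3.06%, at an unadjusted p under 0.05). Of the 17 interferon response probe sets, 17 had a higher mean in standard-diet than in cholesterol-diet CETP arrays. The same held for 922 of the 1606 named and 11175 of all 22206 probe sets. The names come from a table selected on that difference.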

How the data were processed

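RNA of 7 mouse astrocyte preparations, 1 per array, was labelled from 10 ng by the Affymetrix Pico protocol, per the labels' protocols. The authors deposited log2 probe set values. Their summarisation and normalisation were not given in the sources used here. The log base of 2 was checked against the authors' signed linear fold table, whose folds equalled differences of standard-diet and cholesterol-diet CETP values within 0.01 (log2) for 99.89% of 1778 entries. That table otherwise gave names only: 1525 entries matched a RefSeq symbol or synonym (GRCm38.p6) on the same chromosome, 58 of them through an older or human name, 78 kept the table's name, and 160 with several genes were left unnamed.

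Means of 3 groups were fitted on all 7 arrays with limma 3.58.1 (R 4.3.3), with Benjamini-Hochberg adjustment over 22206 probe sets and a threshold of 0.05, and tested on simulated data. Replicates are mice. The precision is limited by the number of arrays. The members and lists (31 lists, 755 symbols, 148 named) were chosen with earlier results of these data known. Genes were named by the smallest p (12 per direction) or largest difference (5 per direction) among named probe sets with non-overlapping groups. Both arrays of the higher group had to be above their negative control median, with no such condition on the lower group. Further genes were named by replicate 4 or 5 standing alone (up to 10 each), and by the smallest p within a list (up to 6). Other list members (Stat2, Irf9, Usp18, Bst2, the IRGM probe set, Tyrobp, Trem2, Cx3cr1 and Csf3r) were added after their values were seen. The compared groups share no replicate number. Alternatives covered the arrays fitted, scaling, dim probe sets, probe sets per gene, array weights, the variance prior, random blocks, a spike-in covariate and the threshold. Some named genes are not reported here.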

Additional observations from a re-analysis of the deposited data

Results flagged for a closer look

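Sorl1 lay below both wild-type arrays on both CETP standard-diet arrays and above both wild-type arrays on all 3 cholesterol-diet CETP arrays, but by small margins. CETP standard-diet replicate 4 had 12.10 (log2), cholesterol-diet replicate 2 had 12.28, and the wild-type arrays had 12.28 and 12.11. The difference of CETP standard-diet from cholesterol-diet arrays was -0.51 (log2) for Sorl1. In limma's direct contrast of the 2 CETP groups its adjusted p was 1.0, and its name comes from a table selected on that contrast.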

How the results depend on the processing

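No probe set passed an adjusted p of 0.05 under any alternative run, including a threshold of 0.1, except that 13 passed without CETP standard-diet replicate 5. Keeping probe sets above the negative control median on 2 or more arrays (11681) left 332 higher and 241 lower at an unadjusted p under 0.05, and 1587 above and 1900 below without overlap, since fewer were tested. Leaving out 1 array at a time gave 0 to 13 probe sets at an adjusted p of 0.05, 413 to 806 higher and 412 to 1200 lower at an unadjusted p under 0.05. The lower count was 412 without cholesterol-diet replicate 1, 1129 without wild-type replicate 2 and 1200 without wild-type replicate 3, and the cause was not tested. Of the unadjusted calls, 45.7% were higher as deposited, 57.9% after the dim filter and 56.1% after quantile normalization. No paired analysis was possible because the compared groups share no replicate number; with the number as a random replicate block, 0 probe sets passed, with 532 higher and 640 lower at an unadjusted p under 0.05.

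Differences of single genes changed sign in 23 of 1482 recomputed values (18 of 88 genes and probe sets). With each array left out in turn, 17 genes crossed 0. Aif1 ran from -0.29 to 2.86, the brightest BCL2A1 probe set from -0.12 to 4.64, Btg2 from -0.29 to 1.13, Cd68 from -0.60 to 2.75, Clec7a from -0.079 to 3.17, Gpr34 from -0.049 to 2.62, Hspb1 from -0.56 to 2.24 and Tgfb1 from -0.060 to 1.36, with the lowest value without replicate 4. Gid4 ran from -0.75 to 2.60 and Lmo4 from -0.27 to 2.72, with the lowest value without replicate 5. Hsph1 ran from -1.61 to 1.06, Lrp1 from -0.61 to 0.027, Srebf1 from -0.80 to 0.056 and Srebf2 from -0.46 to 0.046, with the highest value without replicate 5. Hspa5 ran from -0.44 to 0.44, Slc1a3 from -0.18 to 0.82 and Sox9 from -0.016 to 0.25, with the lowest value without wild-type replicate 3. With the spike-in covariate, Hbb-b1 gave -0.11, Hspa5 -0.062, Slc1a3 -0.038 and Sox9 -0.17, and after quantile normalization Hspa5 gave -0.016. Across all settings the list median ran from 0.98 to 1.29 for interferon response, 0.87 to 1.58 for interferon-gamma GTPases, 0.51 to 3.45 for microglia, and -0.98 to -0.57 for fatty acid and glycerolipid metabolism (log2). Names cover 1606 of 22206 probe sets, the normalisation is not known, and genes under the negative control median have uncertain differences.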
